A study of Mus musculus with 4 samples.

Results

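The genes described here are noncoding RefSeq genes that still carry a Rik symbol, the provisional name given to genes first seen as RIKEN full-length cDNA clones of the mouse. A gene was taken when all of its transcripts in the deposited gene models had RefSeq noncoding accessions, its symbol ended in Rik and it had a raw count of at least 10 in at least 2 of the 4 libraries. This left 285 genes of 24625 in the gene models. The models hold 3471 noncoding RefSeq genes, of which 1218 have Rik symbols. Of these, 933 lay below the count minimum and 612 of those had 0 counts in all 4 libraries. The genes were thus chosen by their raw counts, and that they were detected is a description and not a result.

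RNA came from peritoneal macrophages of C57BL/6 mice in 2 groups, with 2 libraries each. The high-fat group ate a diet with 60% of its calories as fat for 12 weeks, and the control group ate standard chow over the same time. Every mouse in both groups had received 3% thioglycollate, an irritant that recruits macrophages, into the peritoneal cavity 4 days before its cells were taken. Ribosomal RNA was removed from total RNA before paired-end sequencing, and RNAs without a poly(A) tail were therefore kept. The labels give no age or sex and do not say whether a library is 1 mouse or a pool. The p-values therefore measure only the spread between these samples, which may be technical.

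Long noncoding RNAs are transcribed by RNA polymerase II and are usually spliced and less abundant than messenger RNAs. Many start beside a protein-coding gene and run away from it on the other strand, many overlap the exons of a neighbour in antisense, and some are the precursors from which microRNAs or small nucleolar RNAs (snoRNAs) are cut. In macrophages, long noncoding RNAs are known mainly as regulators of inflammatory and myeloid genes, but most Rik genes have no assigned role.

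A GRCm38.p6 RefSeq table matched 276 of the 285 genes by transcript accession and 8 by symbol or synonym. A230073K19Rik was matched by neither. By current biotype, 263 were long noncoding RNAs, 12 were transcribed pseudogenes and 9 were protein-coding genes. A new symbol was listed for 24 of them, among them Norad (2900097C17Rik), Oip5os1 (1700020I14Rik, also called Cyrano), Chaserr (1810026B05Rik), Dubr (5330426P16Rik), Snhg16 (1810032O08Rik), Snhg17 (9430008C03Rik), Snhg20 (2810008D09Rik) and Mir100hg (2610203C20Rik). Counts of the transcribed pseudogenes are uncertain, because reads that match several copies cannot be assigned to 1 of them.

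Gene totals ran from 40527591 to 45658551 counts in the high-fat libraries and from 39347347 to 39846646 in the control libraries. Reads in no gene model made up 13.5% to 15.03% of the counted lines, reads matching more than 1 gene 0.664% to 0.823%, and alignments at more than 1 place 37.5% to 48.5%. Genes that mark macrophages summed to 19645 and 24074 CPM (counts scaled to the library's gene total) in the high-fat libraries and to 26441 and 25337 CPM in the control libraries. Markers of mesothelial cells and fibroblasts summed to 172 and 85.3 CPM with high-fat diet, against 20.5 and 27.9 CPM with control diet. B cell markers summed to 65.5 and 165 CPM with high-fat diet and to 65.1 and 61.8 CPM with control diet, and T cell markers to 1.77 and 16.3 CPM with high-fat diet, against 2.21 and 2.55 CPM with control diet. High-fat replicate 2 thus stood apart in lymphocyte genes.

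With high-fat diet, F630028O10Rik was the only gene of the 285 to pass the test (0.351%), and it fell. It is the long noncoding RNA from which miR-223 is cut, a microRNA that restrains the production and activation of granulocytes and is abundant in myeloid cells. It had 2300 and 1961 counts in the high-fat libraries, against 3074 and 4049 counts in the control libraries. Both high-fat libraries lay below both control libraries, and the control libraries were further apart than the high-fat ones. Scaled to library size it averaged 49.3 ± 0.328 CPM with high-fat diet and 90.3 ± 19.8 CPM with control diet (SD, n = 2 each). The log2 fold change, high-fat over control as throughout, was -0.87 ± 0.14 (SE; adjusted p = 0.0456, edgeR quasi-likelihood test, adjusted over all tested genes). Of the 12747 tested genes 0.612% passed in either direction and 0.29% passed as lower, so 1 of 285 is near the background. The adjusted p lies close under the threshold of 0.05, and 4 alternative settings put it above 0.05. Without control replicate 2, the higher of the control libraries, the log2 fold change was -0.63 and the adjusted p 0.0617. Without high-fat replicate 2, which stood apart in lymphocyte genes, the log2 fold change was -0.87.

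F630028O10Rik lies on chromosome X from 93435265 to 93438981 on the plus strand (mm9), with 3 exon blocks that sum to 2777 bases. The Mir223 hairpin lies in its exons, at 93438156 to 93438265 on the same strand. The hairpin itself was listed at 0 counts in all 4 libraries, as was every gene that lies wholly under exons of another gene on its strand. The level of the mature microRNA is therefore not given by these counts. The nearest coding gene, Vsig4, encodes a complement receptor of tissue macrophages and ends 3561 bases away on the minus strand. Vsig4 had 2381 and 2277 counts in the high-fat libraries, against 3639 and 1029 in the control libraries, and its log2 fold change was -0.11 ± 0.76 (adjusted p = 0.955, edgeR quasi-likelihood test). Both control values of Vsig4 lay outside the range of the high-fat ones, 1 above and 1 below. The mature strands of miR-223 are shown with the seed, bases 2 to 8, in capitals, since the seed sets which messenger RNAs a microRNA pairs with (RefSeq, GRCm38.p6).
mmu-miR-223-3p: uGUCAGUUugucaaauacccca
mmu-miR-223-5p: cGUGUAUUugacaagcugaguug

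The window around the start of F630028O10Rik, 250 bases before to 50 after it, is shown with every CpG in capitals (chrX:96239676-96239975, plus strand, GRCm38.p6, RefSeq). It holds 2 CpG dinucleotides and 45.3% G and C, and no TATAAA on either strand. Fewer than 5 CpG were found in 38.3% of the 27018 windows of the same length in that table, and TATAAA on either strand in 14.2% of them.
F630028O10Rik: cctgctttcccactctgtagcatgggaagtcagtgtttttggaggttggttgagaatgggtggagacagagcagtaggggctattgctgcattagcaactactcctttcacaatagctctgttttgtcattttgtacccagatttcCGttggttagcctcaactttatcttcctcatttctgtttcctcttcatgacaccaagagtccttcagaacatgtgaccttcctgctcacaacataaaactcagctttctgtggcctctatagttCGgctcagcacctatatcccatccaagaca

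Genes that mark neutrophils, in which miR-223 is abundant, had log2 fold changes of the same sign. Of 8 listed neutrophil markers 6 were abundant enough to test, and all 6 lay below 0. Their median log2 fold change was -0.81, and 1, Csf3r, passed the test. Library values of S100a8, S100a9 and Mmp8 overlapped between the diets, while those of Csf3r, Retnlg and Ltf did not. The summed level of all 8 was 69.8 and 52.8 CPM in the high-fat libraries, against 82.4 and 89.7 CPM in the control libraries, and none of the 8 was at 0 in all 4 libraries. The granule genes Camp and Ngp had at most 1 count in any library. Dendritic cell markers lay further below 0. All 6 had log2 fold changes below 0, with a median of -1.87, and 1, Cd209a, passed. Their summed level was 3.83 and 4.33 CPM in the high-fat libraries, against 10.8 and 11.3 CPM in the control libraries. Of the 8 macrophage markers, 7 had log2 fold changes below 0 and 1 passed. Of 5 tested mast cell and eosinophil markers, 3 lay above 0 and 2 below, with a median of 0.11, and none passed. The 2 below were Siglecf at -1.32 and Ccr3 at -2.22. The part of these cell types in the value of F630028O10Rik was not tested, and in bulk RNA fewer cells of a type cannot be told apart from less RNA per cell.

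The noncoding Rik genes were mostly low. Their reads made up 0.193% and 0.183% of gene counts in the high-fat libraries and 0.194% and 0.198% in the control libraries. Per exon length, the median of the 285 was 0.704 RPKM (CPM divided by the exonic length in kilobases, as the mean of the 4 libraries), with quartiles at 0.381 and 1.94 and a range of 0.0732 to 131.9. By library the median was 0.673 and 0.664 RPKM with high-fat diet, against 0.759 and 0.821 RPKM with control diet. At 1 RPKM or above stood 114 genes (40.0%), and at 10 RPKM or above stood 18. Under the same count minimum the median was 2.88 RPKM over 405 noncoding genes with other symbols, 3.37 RPKM over 285 coding genes with Rik symbols and 5.94 RPKM over all coding genes. Of the noncoding Rik genes 61 (21.4%) lay on 1 exon block, against 54.1% of noncoding genes with other symbols and 1.96% of coding genes. All 4 libraries reached 10 counts for 256 genes.

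Norad alone held 34.5% and 32.9% of all reads on these genes with high-fat diet, against 34.5% and 33.0% with control diet. Norad keeps Pumilio proteins, repressors of messenger RNA, from their targets and thereby guards chromosome number. It had 30442 and 24459 counts in the high-fat libraries and 26692 and 25739 in the control libraries. It averaged 634 ± 30.8 CPM with high-fat diet and 663 ± 0.0544 CPM with control diet (SD, n = 2 each), which gave -0.06 ± 0.10 on the log2 scale (edgeR quasi-likelihood adjusted p = 0.773).

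Next to Norad in level, 2610001J05Rik stood at 53.3 and 63.6 RPKM with high-fat diet and at 51.8 and 54.9 RPKM with control diet. 2900060B14Rik, which lies in an intron of Clasp1 on the other strand, stood at 40.2 and 49.4 RPKM with high-fat diet and at 47.0 and 65.6 RPKM with control diet. G530011O06Rik, inside Mid1 on the other strand, stood at 58.5 and 40.3 RPKM with high-fat diet and at 39.1 and 36.1 RPKM with control diet. Its log2 fold change was 0.39 ± 0.17 (adjusted p = 0.293, edgeR quasi-likelihood test). Leaving out high-fat replicate 2 gave 0.63, and leaving out high-fat replicate 1 gave 0.10. Oip5os1, which triggers decay of the microRNA miR-7, had 41.7 and 45.5 RPKM with high-fat diet, against 40.2 and 44.1 RPKM with control diet. In this order each of these 4 genes overlapped the next in its library values, while Norad stood clear above them. Below them came 1810058I24Rik at 32.1 RPKM, 2410006H16Rik at 26.4 RPKM and F630028O10Rik at 25.1 RPKM (means of 4 libraries). The 18 genes of at least 10 RPKM split into 8 with a log2 fold change below 0 and 10 above, with a median of 0.05, and F630028O10Rik had the lowest value of them.

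**Figure D1:**
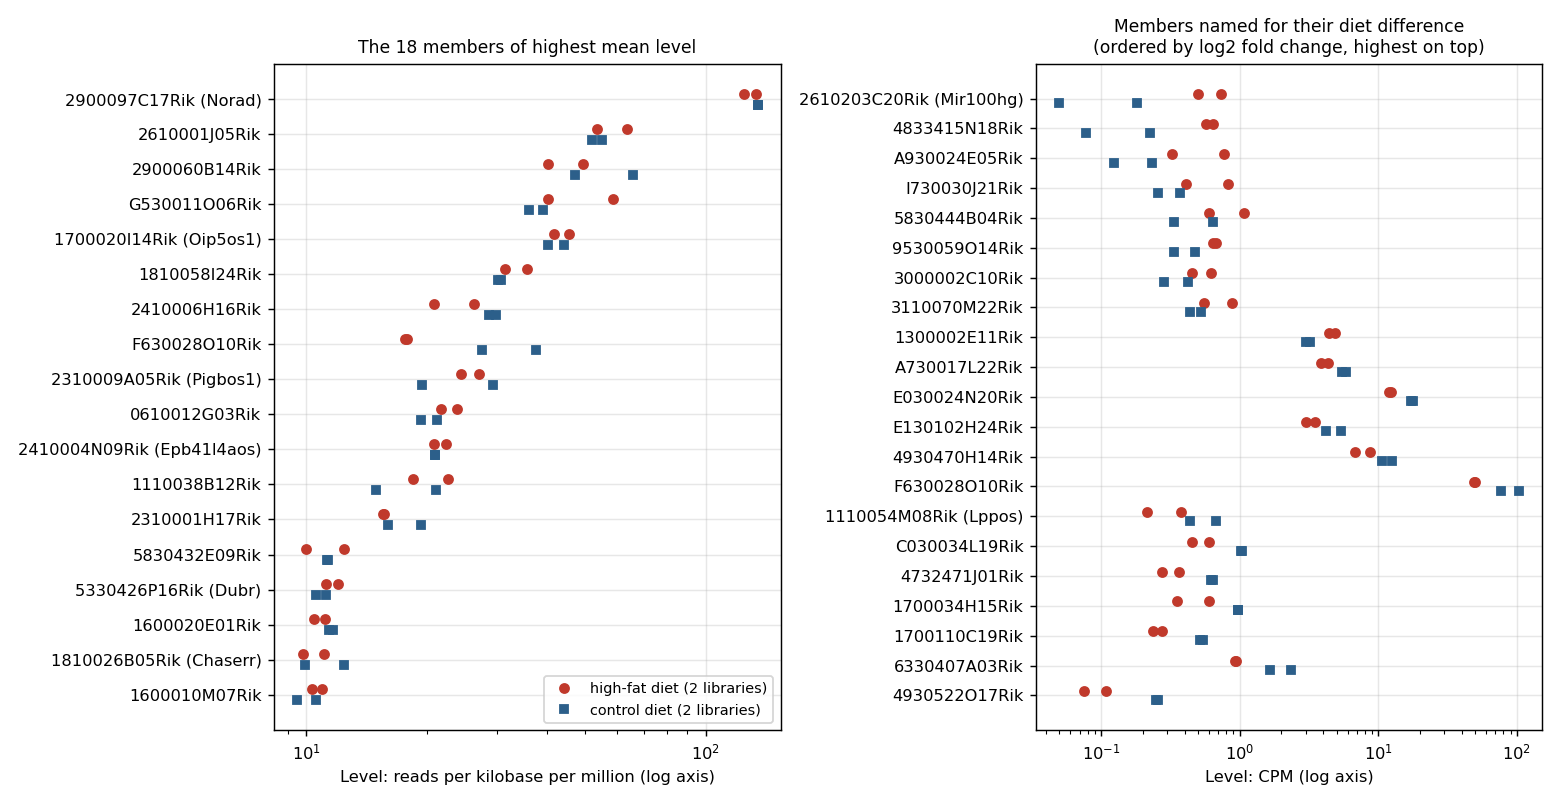
Levels of single noncoding Rik genes in each library, with current symbols in brackets; red circles are the 2 high-fat libraries and blue squares the 2 control libraries, on log axes. The left panel gives RPKM for the 18 highest genes, where F630028O10Rik has a clear gap between the diets; the right panel gives CPM for genes named for their diet difference, ordered by log2 fold change.

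Several of the highest genes are protein coding in the later RefSeq table, and belong here because the deposited models list them as noncoding. The 9 such genes had log2 fold changes from -0.64 to 0.97, with 5 above 0, and the smallest unadjusted p among them was 0.102 (edgeR quasi-likelihood test). 1810058I24Rik, which encodes a short transmembrane protein of mitochondria, had 1902 and 1858 counts with high-fat diet, against 1614 and 1528 with control diet (log2 fold change 0.14 ± 0.10). Pigbos1 (2310009A05Rik), a microprotein of the outer mitochondrial membrane, had 557 and 533 counts with high-fat diet and 386 and 559 with control diet. 0610012G03Rik had 1627 and 1279 counts with high-fat diet and 1149 and 1212 with control diet. Mtln (1500011K16Rik), a micropeptide that supports fatty acid oxidation in mitochondria, had 331 and 333 counts with high-fat diet, against 260 and 364 with control diet, which gave -0.03 ± 0.20 on the log2 scale (edgeR quasi-likelihood adjusted p = 0.942). For Pigbos1 and Mtln the high-fat values lay inside the range of the control values.

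Beyond F630028O10Rik, no gene of the set passed the edgeR quasi-likelihood test after adjustment. An unadjusted p under 0.05 was found for 23 genes (8.07%, F630028O10Rik included), of which 19 were lower and 4 higher with high-fat diet. Over all tested genes that share was 17.0%. The share of low p-values was thus below the background. Among noncoding genes with other symbols it was 10.5%. The median of the mean counts was 54.25 over the 285 genes and 54.5 over noncoding genes with other symbols, against 595 over all tested genes. The part of the lower counts in this share was not tested.

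The values themselves leaned to the low side. The median log2 fold change was -0.18 over the 285 genes, with 185 below 0 and 100 above, against a median of -0.01 over all tested genes, of which 50.8% were below 0. Both high-fat libraries lay below both control libraries for 102 genes (35.8%), where 24.9% of all tested genes did so, and above them for 44 genes (15.4%), where 26.1% of all tested genes did so. Noncoding genes with other symbols had the same median, -0.18, with 66.8% below 0. Coding genes with Rik symbols had a median of -0.0028. These are counts over genes that share 4 libraries and give no test of the lean. Without high-fat replicate 2 the median of the noncoding Rik genes was -0.15, and with a filter of 1 CPM in 2 libraries, which kept 170 of them, it was -0.11.

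**Figure D2:**
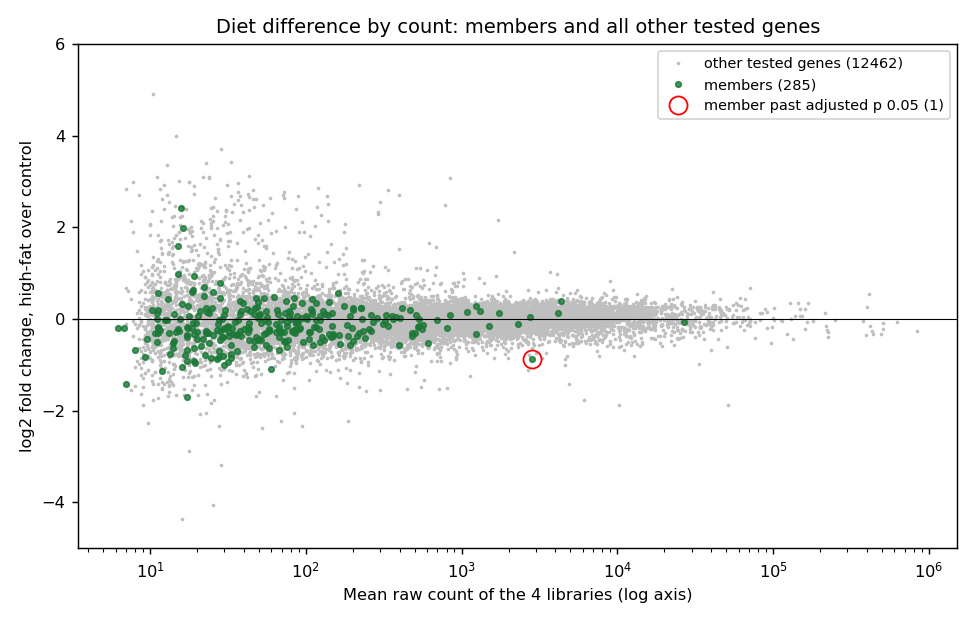
Log2 fold change (high-fat over control) against mean raw count of the 4 libraries on a log axis, for the 285 noncoding Rik genes (green, members in the legend) and all other tested genes (grey). The green points lie mostly under 300 counts and more often below 0 than above; the ring marks F630028O10Rik, at -0.87.

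The medians of the noncoding Rik genes lay lowest among genes with few counts. Below a mean of 30 counts, 66 of 95 noncoding Rik genes lay below 0, and the median log2 fold change was -0.25. From 30 to 100 counts the median was -0.21 (99 genes), from 100 to 300 counts -0.12 (55 genes), and at 300 counts or above -0.02 (36 genes). Noncoding genes with other symbols had medians of -0.24, -0.20, -0.11 and -0.16 in the same bands, so theirs stayed below 0 at 300 counts or above, where 71.0% of 93 genes lay below 0. Coding genes had medians of 0.05, -0.04, -0.08 and 0.02. The differences between these sets were not tested. Low counts also carried the most error: within a diet, the replicates of these genes differed by a median of 0.50 (high-fat) and 0.36 (control) on the log2 scale below 30 counts, against 0.17 and 0.11 at 300 counts or above. Over all 285 genes these replicate differences were 0.27 with high-fat diet and 0.23 with control diet, and over all tested genes 0.15 and 0.17.

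**Figure D3:**
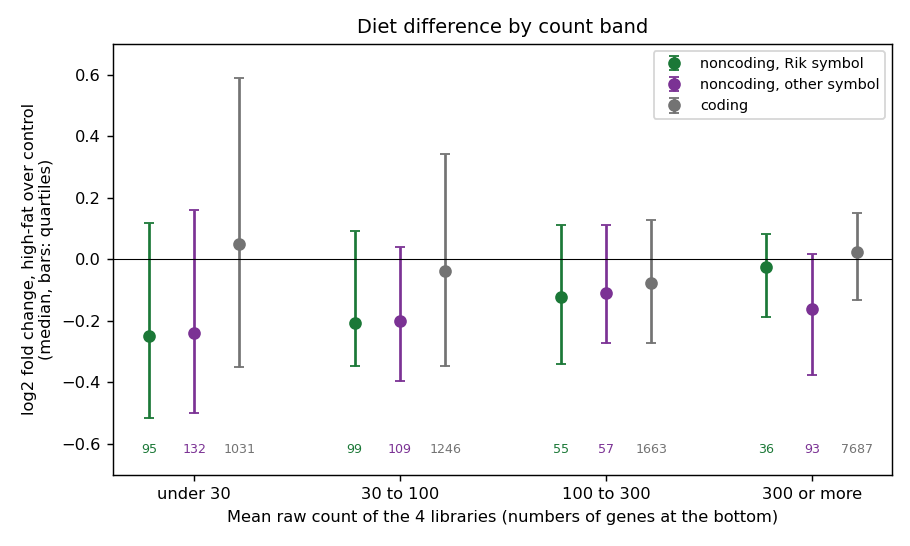
Median log2 fold change (high-fat over control) with quartile bars, by mean raw count, for noncoding Rik genes (green), other noncoding genes (purple) and coding genes (grey), with numbers of genes at the bottom. Medians of noncoding Rik genes run from -0.25 in the lowest band to -0.02 in the highest, while coding medians stay between -0.08 and 0.05.

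Of genes with at least 10 counts in every library, 6330407A03Rik had the lowest log2 fold change. It is a single exon of 1843 bases in an intron of Lyn, on the same strand as this gene of a myeloid Src-family kinase, at chromosome 4 from 3642111 to 3643953 (mm9). It had 44 and 37 counts with high-fat diet, against 94 and 64 with control diet, which gave -1.09 ± 0.30 on the log2 scale (edgeR quasi-likelihood adjusted p = 0.139). The groups did not overlap, but the gene did not pass. Lyn itself stood at 0.18 with an adjusted p of 0.415. Unspliced Lyn RNA and a separate transcript at this place cannot be told apart in these counts.

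The other low values of this kind came from genes with 10 to 41 counts a library. 1700110C19Rik had 11 and 11 counts with high-fat diet and 22 and 20 with control diet (log2 fold change -1.05 ± 0.43). 1700034H15Rik had 28 and 14 counts with high-fat diet and 39 and 38 with control diet (-1.01 ± 0.39). 4732471J01Rik, C030034L19Rik and Lppos (1110054M08Rik) followed with -0.96, -0.95 and -0.92. High-fat libraries lay below control libraries for each of them, which picking by fold change favours. None of these passed (adjusted p 0.234 to 0.356, edgeR quasi-likelihood test). 4931431C16Rik, named after its values were seen, had the lowest value of all 285 genes. It had 7 and 10 counts with high-fat diet and 31 and 21 with control diet (-1.71 ± 0.47, adjusted p = 0.138, edgeR quasi-likelihood test). Without high-fat replicate 2 its log2 fold change was -2.10.

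Of the better-counted genes with a low unadjusted p, 4 stood lower with high-fat diet and are given here. E030024N20Rik is a transcribed pseudogene in an intron of Gnaq on the same strand. Unspliced Gnaq RNA cannot be told apart from it in these counts. E030024N20Rik had 578 and 478 counts with high-fat diet, against 715 and 664 with control diet. Its log2 fold change was -0.51 ± 0.13, with the smallest p after F630028O10Rik among genes of at least 10 counts in every library (adjusted p = 0.110, edgeR quasi-likelihood test), while Gnaq stood at -0.18. With no filter on low counts its adjusted p was 0.0409, and under the other alternatives it ran from 0.0716 to 0.361. 4930470H14Rik had 313 and 349 counts with high-fat diet and 502 and 411 with control diet (-0.58 ± 0.18), and its log2 fold change was -0.78 without high-fat replicate 2. A730017L22Rik, which starts 100 bases from Atrn on the other strand, had 178 and 173 counts with high-fat diet and 221 and 228 with control diet (-0.48 ± 0.18). E130102H24Rik, the precursor of miR-101a, had 163 and 120 counts with high-fat diet and 168 and 210 with control diet (-0.55 ± 0.21). In all 4 genes both high-fat libraries were below both control libraries, as in 24.9% of all tested genes. Picking genes by small p favours this, so it is no further support. None of the 4 passed the edgeR test under the filter on low counts with all 4 libraries.

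Of the 6 genes with the highest log2 fold changes among those with at least 10 counts in every library, 1300002E11Rik had the most counts. It had 203 and 195 counts with high-fat diet, against 121 and 125 with control diet, and averaged 4.63 ± 0.359 CPM with high-fat diet and 3.11 ± 0.151 CPM with control diet (SD, n = 2 each). Its log2 fold change was 0.57 ± 0.20 (unadjusted p = 0.0172, adjusted p = 0.206, edgeR quasi-likelihood test), so it did not pass although its groups did not overlap. I730030J21Rik had 19 and 33 counts with high-fat diet and 15 and 10 with control diet (0.95 ± 0.49). 5830444B04Rik had 50 and 24 counts with high-fat diet and 26 and 13 with control diet (0.78 ± 0.46), and here the counts of the groups overlapped. 9530059O14Rik, 3000002C10Rik and 3110070M22Rik stood at 0.70, 0.60 and 0.58.

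The 3 highest fold changes of the set belonged to genes that entered through the high-fat libraries alone. Mir100hg, the precursor of miR-125b, had 34 and 20 counts with high-fat diet, against 2 and 7 with control diet (2.41 ± 0.59, adjusted p = 0.105, edgeR quasi-likelihood test). 4833415N18Rik had 30 and 23 counts with high-fat diet and 9 and 3 with control diet (1.99 ± 0.53). A930024E05Rik had 15 and 31 counts with high-fat diet and 5 and 9 with control diet (1.60 ± 0.59). A difference was built into their selection, so their p-values are no test of it. None of the 3 passed in the main fit. With no filter on low counts the adjusted p was 0.0229 for Mir100hg, listed as 2610203C20Rik, and 0.0497 for 4833415N18Rik (edgeR quasi-likelihood test). All 9 tested mesothelial and fibroblast markers were above 0 as well, with a median of 2.15 and the sums given above, and 1 of them passed; 2 of the 11 listed were too low to test. All 8 B cell markers and 4 of 5 tested T cell markers were above 0 too. The sums of both lists were highest in high-fat replicate 2, as A930024E05Rik was. Igj was the only B cell marker to pass, at 3.66 and 3.05 CPM with high-fat diet, against 0.596 and 1.21 CPM with control diet. No T cell marker passed. No marker of these lists was at 0 in all 4 libraries. The part of these cell types was not tested.

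At the other end, 4930522O17Rik (5 and 3 counts with high-fat diet, 10 and 10 with control diet) and Mm2pr, listed as 5730422E09Rik (8 and 6 with high-fat diet, 13 and 10 with control diet), entered through the control libraries alone. E030011O05Rik, with 1 and 11 counts with high-fat diet and 11 and 2 with control diet, was also barely inside the minimum. Just outside it were 3830408C21Rik (9 and 9 counts with high-fat diet, 8 and 19 with control diet), 4933406C10Rik (9 and 9 with high-fat diet, 13 and 7 with control diet) and E030003E18Rik (24 and 9 with high-fat diet, 2 and 2 with control diet).

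By position in the gene models, 123 of the 285 genes lay apart from coding genes, and 76 shared no exon base with a coding gene but started within 1000 bases of a coding start on the other strand. Another 66 overlapped coding exons on the opposite strand, 5 did so on the same strand or with a partner of unclear strand, and 15 lay inside a coding gene without touching its exons. In all, 71 of 285 (24.9%) shared at least 1 exonic base with a coding gene, against 15.3% of other noncoding genes and 9.80% of coding genes themselves. A shared stretch of at least 50 bases was found for 68 genes and one of at least 10% of the gene's exonic bases for 47. In 3 genes the shared part was most of the gene, namely 79.2% of 1110002L01Rik with Kif3c, 74.0% of 4732416N19Rik with Tmtc1 and 57.9% of 5430405H02Rik with Tgif2. Median log2 fold changes were -0.12 for genes apart, -0.17 for those paired at the start, -0.21 for either kind of exon overlap and -0.22 for genes inside a coding gene.

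**Figure D4:**
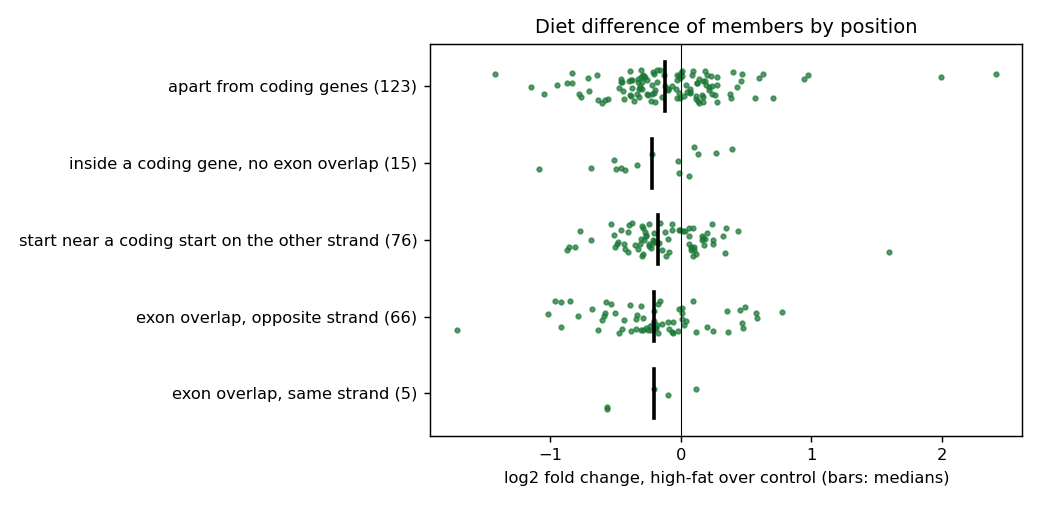
Log2 fold change (high-fat over control) of each noncoding Rik gene by its position relative to coding genes; black bars are medians, numbers in brackets count genes, and vertical jitter has no meaning. Medians lie between -0.22 and -0.12 in all 5 classes, with wide spread.

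How far overlapping genes can be separated depends on whether counting used strand, which is not stated. Of 394 genes whose exons lie wholly under exons of other genes on the same strand, none had a count. Of 55 wholly covered on the opposite strand, 12 had counts, up to 145 over the 4 libraries for Mir142. Counting without regard to strand that drops reads matching more than 1 gene would leave such genes at 0. Values of genes in antisense overlap are still given here as uncertain.

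The largest shared stretch was 2612 bases between 1110002L01Rik and Kif3c, a kinesin motor subunit, on opposite strands. 1110002L01Rik had 472 and 367 counts with high-fat diet and 391 and 368 with control diet, a log2 fold change of 0.01 ± 0.15, and Kif3c stood at -0.20 ± 0.22. 9930014A18Rik shared 1297 bases with Fam84b and stood at -0.17, against -0.05 for Fam84b. A230073K19Rik shared 1132 bases with Ube3a, the ubiquitin ligase gene whose antisense RNA is imprinted in neurons, and stood at 0.24 ± 0.47 on 19 and 37 counts with high-fat diet, against 19 and 25 with control diet. Ube3a stood at 0.07. On the same strand, Chaserr shared 634 bases with Chd2, the chromatin remodeller that it is known to hold down in cis. Chaserr had 2337 and 2276 counts with high-fat diet, against 2056 and 2481 with control diet, a log2 fold change of -0.10 ± 0.13, and Chd2 stood at 0.01 ± 0.09. 6530402F18Rik with Ntng2 (213 bases) and E030011O05Rik with Zbtb38 (101 bases) followed, at 0.12 and -0.21.

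Many genes started beside a coding gene. Counting those with exon overlap too, 124 of 285 genes (43.5%) started within 1000 bases of a coding start on the opposite strand, against 14.3% of coding genes, at a median distance of 168.5 bases. Per exon length, the noncoding gene stood at a median of 7.20% of its partner's level, and above its partner in 12 pairs. Diet differences of the partners were only loosely alike: across the 124 pairs Pearson's r between their log2 fold changes was 0.14 and Spearman's rho 0.12, with 63 pairs of the same sign. Across 63 pairs with overlapping exons in which both genes were tested, r was 0.32 and rho 0.46, with 40 of the same sign. These are descriptions across genes that share the same 4 libraries. Reads matching more than 1 gene were kept apart from the gene counts, so no read counted for both genes of a pair. How the other reads near shared exons were assigned depends on the strand setting, which is not stated.

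**Figure D5:**
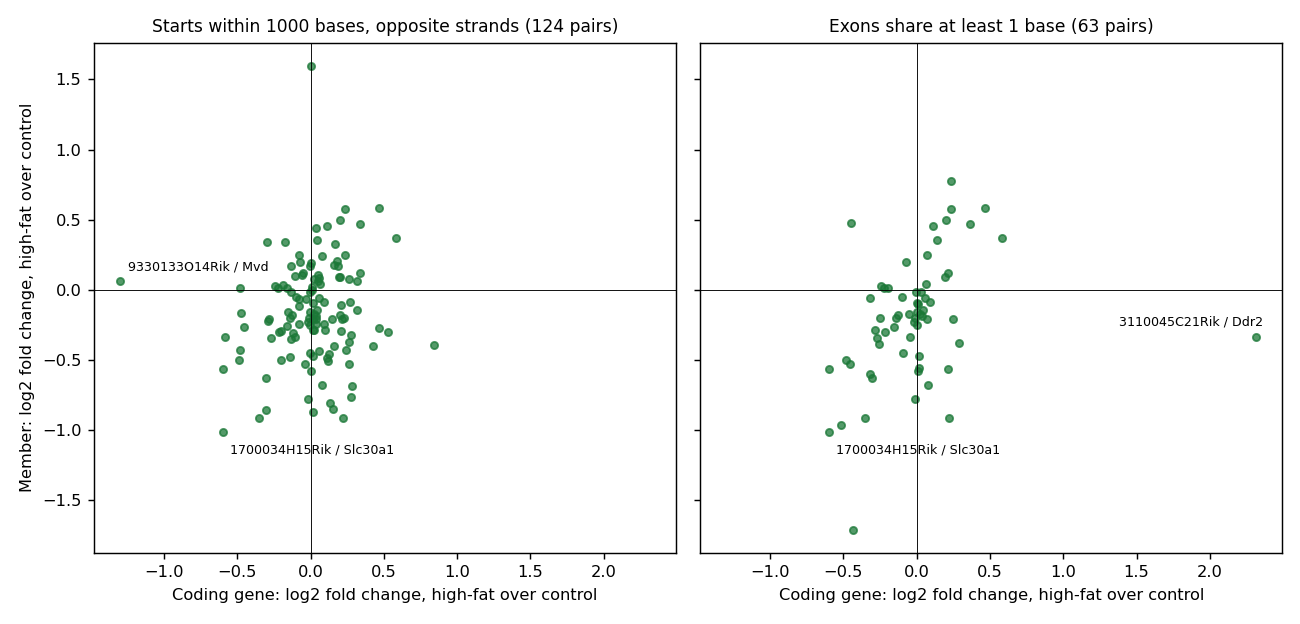
Log2 fold change (high-fat over control) of each noncoding Rik gene against that of its coding partner, for pairs with starts within 1000 bases on opposite strands (left, 124 pairs) and pairs with overlapping exons (right, 63 pairs). Labels mark pairs whose coding gene passed the test; only 1700034H15Rik with Slc30a1 lies low on both axes among them.

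In 3 pairs the coding partner passed the test. Slc30a1, which exports zinc from the cell, fell by 0.60 ± 0.10 on the log2 scale (edgeR quasi-likelihood adjusted p = 0.0409), and 1700034H15Rik across from it stood at -1.01 without passing. Their starts are 746 bases apart and their exons share 468 bases on opposite strands. How reads there were assigned depends on the strand setting, which is not stated. Mvd, an enzyme of the mevalonate pathway of sterol synthesis, fell by 1.30 ± 0.22 on that scale (adjusted p = 0.0429). 9330133O14Rik, which starts 234 bases from Mvd, had 212 and 194 counts with high-fat diet, against 183 and 174 with control diet, and stood at 0.06 ± 0.18. Ddr2, a collagen receptor of mesenchymal cells, rose by 2.31 ± 0.38 on the log2 scale (adjusted p = 0.0429), while 3110045C21Rik, which shares 90 exonic bases with it, stood at -0.34 ± 0.34. The difference within a pair was not tested.

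The start windows of Slc30a1 and 1700034H15Rik, which face each other on opposite strands, are shown with every CpG in capitals (RefSeq, GRCm38.p6). That of 1700034H15Rik (chr1:191907478-191907777, minus strand) holds 33 CpG dinucleotides, and that of Slc30a1 (chr1:191906531-191906830, plus strand) holds 36. Neither holds TATAAA on either strand.
1700034H15Rik: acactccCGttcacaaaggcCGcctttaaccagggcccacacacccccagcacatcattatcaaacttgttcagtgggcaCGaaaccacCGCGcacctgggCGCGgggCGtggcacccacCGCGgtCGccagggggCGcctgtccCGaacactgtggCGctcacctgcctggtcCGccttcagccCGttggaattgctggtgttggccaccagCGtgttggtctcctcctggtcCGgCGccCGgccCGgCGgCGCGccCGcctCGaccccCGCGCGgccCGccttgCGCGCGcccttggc
Slc30a1: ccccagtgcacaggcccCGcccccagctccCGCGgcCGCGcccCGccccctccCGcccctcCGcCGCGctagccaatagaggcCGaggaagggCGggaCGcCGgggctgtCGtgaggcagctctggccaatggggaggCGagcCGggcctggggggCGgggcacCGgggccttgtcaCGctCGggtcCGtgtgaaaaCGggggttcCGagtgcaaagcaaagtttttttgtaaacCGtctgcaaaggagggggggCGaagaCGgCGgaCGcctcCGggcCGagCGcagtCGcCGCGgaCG

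High CpG counts were common among start-paired genes. A start window was found for 234 of the 285 genes, with a median of 19 CpG, against 7 over all windows. The 104 that start beside a coding gene had a median of 28, and the other 130 a median of 9.5. TATAAA was found on either strand in 1.92% of the paired and in 12.3% of the unpaired windows. These are matches of letters and not binding sites.

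A microRNA or snoRNA gene lay inside 11 of the 285 genes, on the same strand, with 18 such small RNA genes in all. The 11 host genes stood at a median log2 fold change of -0.25, with 8 below 0. Of the 7 microRNA hosts, 6 were below 0, and Mir100hg was the exception. A330023F24Rik, the precursor of miR-29b and miR-29c, which repress collagen genes, had 1535 and 1439 counts with high-fat diet, against 1463 and 1556 with control diet (log2 fold change -0.15 ± 0.11). C430049B03Rik, which holds Mir322, Mir351 and Mir503 in its exons, had 272 and 229 counts with high-fat diet and 255 and 291 with control diet (-0.25 ± 0.17). 2900076A07Rik, host of Mir1839, stood at -0.31 ± 0.19, and Snhg20, host of Mir6516, at -0.29 ± 0.22. Except for F630028O10Rik, none of the 7 passed the test.

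The mature strands that these hosts are best known for are shown with their seeds in capitals, because microRNAs with the same seed tend to repress the same messenger RNAs (RefSeq, GRCm38.p6). Of 19 mature microRNAs with 17 seeds, 2 seeds occurred in more than 1. AGCACCA was shared by the miR-29 strands of A330023F24Rik, and CCCUGAG by miR-125b of Mir100hg and miR-351 of C430049B03Rik. These last hosts stood on opposite sides of 0, at 2.41 and -0.25.
mmu-miR-29b-3p: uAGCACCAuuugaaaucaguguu
mmu-miR-29c-3p: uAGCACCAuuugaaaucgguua
mmu-miR-125b-5p: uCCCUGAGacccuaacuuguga
mmu-miR-351-5p: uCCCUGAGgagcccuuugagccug
mmu-miR-101a-3p: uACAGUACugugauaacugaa
mmu-miR-322-5p: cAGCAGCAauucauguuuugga
mmu-miR-503-5p: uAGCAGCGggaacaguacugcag

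The snoRNA hosts, whose introns give guide RNAs for modifying ribosomal RNA, lay on both sides of 0. 2410006H16Rik, which holds Snord49a, Snord49b and Snord65, had 446 and 484 counts with high-fat diet and 531 and 533 with control diet (log2 fold change -0.31 ± 0.16, adjusted p = 0.341, edgeR quasi-likelihood test). Snhg16, which holds Snord1a to Snord1c, stood at -0.16, 1110038B12Rik, which holds Snord52, at 0.19, and 2700038G22Rik, which holds Snord93, at 0.12. Hairpins and snoRNAs inside host exons had 0 counts, while those in introns were counted on their own. Mir6516 in Snhg20 was the most counted of them, with 1901 and 2515 counts in the high-fat libraries and 2379 and 3199 in the control libraries. These values were far above the 95 to 113 counts of Snhg20 itself. They are reads at the place of the annotated hairpin and do not give the level of the mature microRNA.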

How the data were processed

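The authors deposited raw read counts per gene, 1 table per library, and the gene models behind them, whose exon positions are other whole-number values on mm9. Per the submitters' processing notes, HTSeq, Cufflinks 2.1.1 and TopHat2 2.0.10 were used. Order and strand settings are not stated. Summary lines that name no gene were left out of library sizes.

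From these counts, 12747 genes were kept by filterByExpr (minimum count 10, minimum total 15) and tested with edgeR 4.0.16 in R 4.3.3 (TMM, robust quasi-likelihood, diet as the only term, 2 residual degrees of freedom), with Benjamini-Hochberg adjustment over all of them at 0.05. The test was checked on simulated data in which only better-counted genes were changed. That check does not cover the test at the low counts of most noncoding Rik genes. A log2 fold change over the root of its F statistic, without sign, gives the standard error. RPKM divides CPM by the union of exonic bases. Overlaps, starts and hosts were read from the gene models.

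The genes, marker lists and naming rules were chosen with earlier results of these data known. Named were called genes, the highest and lowest fold changes, the highest levels, the smallest p-values, the largest overlaps, genes at the count minimum, genes now listed as coding and genes that reached the count minimum in both libraries of 1 diet and in neither of the other. Alternatives were DESeq2 1.42.0, limma-voom (limma 3.58.1), RLE scaling, other filters, a replicate block and leaving out each library. Chi-square per degree of freedom between replicates was 28.9 (high-fat) and 27.7 (control), so each library was counted as 1 sample.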

Additional observations from a re-analysis of the deposited data

How the results depend on the processing

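With 2 libraries per diet the calls were fragile. Of the 285 noncoding Rik genes, 1 passed edgeR's test. The number was 4 with no filter on low counts (F630028O10Rik, E030024N20Rik, 4833415N18Rik and 2610203C20Rik), where 522 of 17380 tested genes passed. Of these 4, 4833415N18Rik and 2610203C20Rik had entered through the high-fat libraries alone. The number was 0 with a filter of 1 CPM in 2 libraries, which kept 170 genes of the set, with the replicate block and with limma-voom. It was also 0 among genes with no exon overlap, which says nothing of stability, because that subset leaves out F630028O10Rik for its overlap with Mir223. An unadjusted p under 0.05 was found for 13 genes with the CPM filter, 30 with the block, 24 with limma-voom and 9 with DESeq2. The share over all tested genes was not taken for these settings. After adjustment DESeq2 called 1. Leaving out each library gave 0 to 6 calls (0 without control replicate 2, 6 without high-fat replicate 2, 3 without high-fat replicate 1), with the lone library assumed to vary like the others. Over all tested genes, 78 calls became 46 with the CPM filter, 522 with no filter, 366 with DESeq2 and 28 with limma-voom, and 15 to 831 without 1 library. F630028O10Rik kept a log2 fold change of -1.09 to -0.63 in every setting run. Its adjusted p was 0.0519 with the CPM filter, 0.0559 with the replicate block, 0.0617 without control replicate 2 and 0.0717 with limma-voom. The block rests on numbers that the samples only share: same-numbered libraries deviated together with a correlation of 0.0888, and all tested genes then gave 113 calls. The median log2 fold change of -0.18 stayed below 0 throughout. It was -0.11 with the CPM filter and -0.13 without exon overlap, and ran from -0.18 to -0.15 without 1 library. The median level of 0.704 RPKM became 0.795 over bases shared with no other gene and 0.872 over genes counted in all 4 libraries. The 71 overlaps became 47 when at least 10% of the gene had to be shared.

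Of 438 values of the 38 named genes under alternatives, 413 kept their direction and side of the threshold, 4 were weaker, 8 stronger and 13 of opposite sign, in 9 genes near 0 or with few counts. All 13 came from leaving out 1 library, and the cause was not tested. With 1 library left out, the log2 fold change ran from -0.0035 to 0.26 for 2610001J05Rik, with the negative value without high-fat replicate 2. It ran from -0.027 to 0.11 for 1700020I14Rik, where it was also -0.020, and from -0.26 to 0.068 for 1810026B05Rik. It ran from -0.92 to 0.74 for E030011O05Rik, from -0.061 to 0.081 for 1110002L01Rik, where it was also -0.0076, and from -0.39 to 0.011 for 9930014A18Rik. It ran from -0.44 to 0.73 for A230073K19Rik, from -0.20 to 0.40 for 2310009A05Rik, where it was also -0.0014, and from -0.29 to 0.26 for 1500011K16Rik, where it was also 0.077.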
